A study of Homo sapiens with 4 samples.

Results

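Transcripts of 9 genes of the aryl hydrocarbon receptor pathway were followed in T47D cells treated with a progestin or with vehicle, out of the 23287 gene symbols listed for these cells. The genes were *AHR*, *ARNT*, *ARNT2*, *AHRR*, *TIPARP*, *CYP1A1*, *CYP1A2*, *CYP1B1* and *NQO1*. They were chosen by gene symbol, with the opposite changes of *TIPARP* and *CYP1A1* in these same libraries already known, so the fold changes given here are a description and carry no test. T47D is an established luminal breast cancer cell line that carries the progesterone receptor (PR), and R5020 is a synthetic progestin that activates this receptor. RNA was sequenced from 1 library of cells treated for 3 h with 10 nM R5020 and from 1 library of cells given ethanol (EtOH), the vehicle, for 3 h. PR binding was measured by ChIP-seq in 1 further library, after 1 h of 10 nM R5020. In all of them the cells had been kept in charcoal-stripped serum, which is depleted of steroids, before they were harvested. By the study's methods this time was shorter for RNA than for ChIP. The cells are a single line, no EtOH library of PR binding was analysed here, and the input DNA that served as the control of the ChIP-seq was not analysed here.

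The aryl hydrocarbon receptor (AHR) is a ligand-activated transcription factor of the bHLH-PAS family that waits in the cytosol in a complex with HSP90. Dioxins, polycyclic hydrocarbons and tryptophan derivatives bind to it, after which it enters the nucleus, pairs with ARNT and binds DNA at xenobiotic response elements, whose core is GCGTG. Its classical targets are the cytochrome P450 genes of family 1, which oxidise polycyclic hydrocarbons and estrogens, and its own inhibitors AHRR and TIPARP, which close a negative feedback loop. In breast cells *CYP1A1* and *CYP1B1* are known for hydroxylating estradiol.

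With 1 library per condition, no spread between cultures could be measured and no statistical test was possible. The error given for a transcript is the interval that the authors' software attached to its FPKM (fragments per kilobase of transcript, scaled to the mapped fragments of the library), which covers estimation within 1 library and not variation between cultures. The coverage of the transcripts corresponded to 35151493 reads in EtOH and 36203604 reads in R5020. These sums cover reads assigned to listed transcripts and are not the depth of the libraries, whose totals in the study's methods are larger and slightly higher for EtOH than for R5020. The luminal identity of the cells was checked with 9 markers, 7 of which were estimated in both libraries at FPKM values between 10.9 and 608. The other 2, *KRT8* and *KRT18*, were listed at 0 in EtOH because their estimates had failed there. Of 15 markers of other cell types 14 were below 1 FPKM in both libraries, the exception being *COL1A1* at 5.12 in EtOH and 3.31 in R5020, and all 3 hepatocyte markers were listed at 0 in both. All 16 transcripts of the 9 genes had a successful estimate in both libraries.

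In the EtOH library the order of the levels, as FPKM summed over the transcripts of each gene, was *CYP1B1*, *NQO1*, *CYP1A1*, *ARNT*, *AHR*, *TIPARP*, *CYP1A2*, *ARNT2* and *AHRR*. In the R5020 library *TIPARP* had moved from sixth to the third place and *CYP1A1* from the third to sixth, and *AHR* and *ARNT* had changed places. The level of *CYP1A1* was 3.10 times that of *TIPARP* in EtOH, whereas in R5020 the level of *TIPARP* was 17.7 times that of *CYP1A1*. The order at both ends, *CYP1B1* and *NQO1* at the top and *CYP1A2*, *ARNT2* and *AHRR* at the bottom, was the same in both libraries. Whether neighbours in this order differ beyond the spread between cultures cannot be said from 1 library each.

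**Figure D1:**
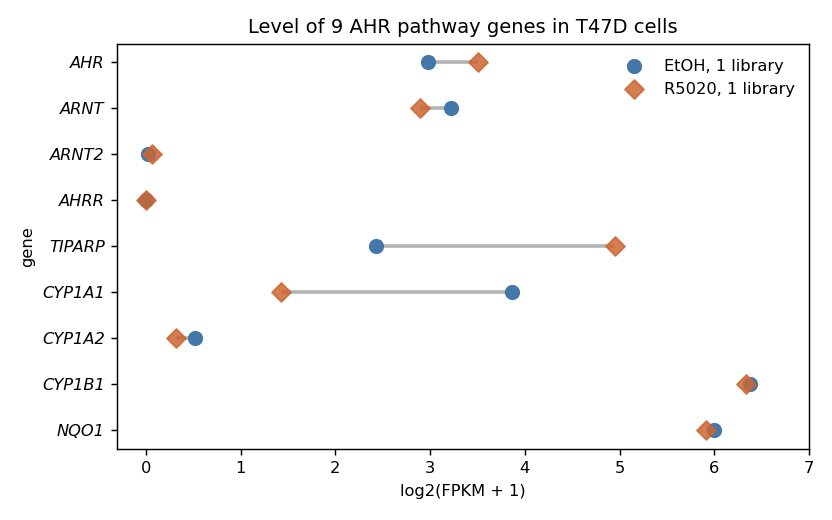
Level of each of the 9 genes, as log2(FPKM + 1), in the EtOH library (circles) and the R5020 library (diamonds), with a grey line joining the 2 values of a gene. *TIPARP* moved to the right from 4.37 to 29.9 FPKM and *CYP1A1* to the left from 13.6 to 1.69 FPKM, while the other genes moved less.

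*AHR*, which encodes the receptor itself (hg19, chr7:17338276-17385775, plus strand), was listed at 6.91 FPKM in EtOH and at 10.4 FPKM in R5020. Its interval ran from 6.55 to 7.24 in EtOH and from 9.79 to 10.9 in R5020, so the intervals lay apart. Its log2 fold change was 0.53, where 1 was added to each FPKM before the R5020 value was divided by the EtOH value. This lay just under the 0.58 that corresponds to the 1.5-fold threshold used throughout. The plain ratio of its FPKM values was 1.504, and the gene passed the threshold when no pseudocount was added. Its single transcript, NM_001621, was covered by about 3998 reads in EtOH and 5864 in R5020.

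*ARNT*, the partner with which the receptor binds DNA (hg19, chr1:150782181-150849244, minus strand), differed the other way, at 8.32 FPKM in EtOH and 6.42 FPKM in R5020, a log2 fold change of -0.33 that did not reach the threshold. Its level was divided among transcripts. NM_001668 was at 5.82 FPKM in EtOH and 3.67 in R5020, with intervals of 5.44 to 6.20 and 3.36 to 3.98. NM_178427 was at 2.51 and 2.75 FPKM with overlapping intervals, and NM_001197325 was listed at 0 in both libraries. NM_001668 thus made up 69.9% of the *ARNT* level in EtOH and 57.2% in R5020. NM_001668 and NM_178427 have the same start and end and lengths of 4887 and 4842 bases. The division of shared reads between them is an estimate of the software. *ARNT2*, a relative of *ARNT* that is mostly known from the nervous system (hg19, chr15:80696692-80890277, plus strand), was barely detected, at 0.019 FPKM in EtOH and 0.043 FPKM in R5020 from about 13 and 27 reads, and its intervals overlapped.

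*AHRR* encodes the repressor that competes with the receptor for ARNT (hg19, chr5:304291-438405, plus strand). Both of its transcripts, NM_001242412 and NM_020731, were listed at 0 FPKM in EtOH and in R5020, and no upper bound of their intervals exceeded 0.00983 FPKM. A listed 0 does not show that a gene is silent here, since *ARPC1B*, an actin regulator that cells generally use, was listed at 8.63 FPKM in EtOH and at 0 in R5020 with a successful estimate in both. *TIPARP* (hg19, chr3:156392205-156424557, plus strand) encodes a mono-ADP-ribosyltransferase that is a target of the receptor and dampens its activity. It was listed at 4.37 FPKM in EtOH and at 29.9 FPKM in R5020, from about 1645 and 11202 reads. The log2 fold change was 2.52, a plain ratio of 6.84, and ranked 45 among the higher values of the 11018 genes that reached 1 FPKM in at least 1 library. By level the gene climbed from rank 6143 to rank 884 of all symbols.

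The promoter of *TIPARP* also carried the highest-scoring of the 24 PR binding sites found within 50 kb of the 9 genes, which are described below. The 300 bases next to the start of NM_015508 (hg19, chr3:156391905-156392204, plus strand) lie inside that site and are shown because they hold letters of both receptors. Capitals mark 1 match to ACANNNTGT, the core of the palindrome bound by PR, at position -277 from the start, and 4 matches to GCGTG on either strand (the reverse strand reads CACGC), at positions -111, -104, -80 and -34.
TIPARP upstream of NM_015508: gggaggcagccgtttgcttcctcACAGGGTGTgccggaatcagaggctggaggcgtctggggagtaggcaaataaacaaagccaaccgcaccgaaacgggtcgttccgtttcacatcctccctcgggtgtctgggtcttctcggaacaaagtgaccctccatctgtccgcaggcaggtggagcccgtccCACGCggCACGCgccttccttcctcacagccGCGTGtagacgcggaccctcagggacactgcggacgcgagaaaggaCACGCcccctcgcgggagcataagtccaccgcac
A match of letters is a description of the sequence and was not tested as a bound element.

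*CYP1A1* (hg19, chr15:75011883-75017877, minus strand) encodes the monooxygenase whose induction is the standard readout of an active AHR. It was listed at 13.6 FPKM in EtOH and at 1.69 FPKM after R5020. The plain level was 8.05-fold lower and the log2 fold change was -2.44. As in any bulk sample, fewer cells that express a gene and less RNA of it per cell cannot be told apart. The intervals ran from 12.9 to 14.3 and from 1.46 to 1.92. About 3329 reads covered its transcript in EtOH and 400 in R5020, and the difference ranked 48 among the lower values of the 11018 genes. Genes listed at 0 in R5020, such as *ARPC1B*, are counted in this ranking. By level the gene dropped from rank 2187 to rank 9433 of all symbols.

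The sequence upstream of *CYP1A1* is shown because it was the richest of the 9 genes in the letters read by AHR. In the 1500 bases before its start there were 10 matches to GCGTG on either strand, at -1377, -1252, -1196, -1107, -1051, -978, -890, -495, -392 and -49. Only 0.560% of 19453 genes with such a window had as many, and the median was 2. The GC content of the *CYP1A1* window was 66.7%. The first stretch below is the 300 bases with the most matches, 5 (hg19, chr15:75018851-75019150, minus strand, positions -1273 to -974), and the second is the 300 bases next to the start, with 1 (hg19, chr15:75017878-75018177, minus strand). Capitals mark GCGTG or its reverse CACGC, and neither stretch holds ACANNNTGT.
CYP1A1 distal stretch: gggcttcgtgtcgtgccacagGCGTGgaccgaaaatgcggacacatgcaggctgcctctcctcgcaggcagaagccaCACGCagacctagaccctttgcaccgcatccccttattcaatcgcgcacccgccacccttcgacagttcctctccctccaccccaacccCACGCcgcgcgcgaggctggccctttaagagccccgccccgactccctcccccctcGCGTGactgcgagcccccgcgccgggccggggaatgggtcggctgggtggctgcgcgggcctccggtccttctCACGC
CYP1A1 next to the start: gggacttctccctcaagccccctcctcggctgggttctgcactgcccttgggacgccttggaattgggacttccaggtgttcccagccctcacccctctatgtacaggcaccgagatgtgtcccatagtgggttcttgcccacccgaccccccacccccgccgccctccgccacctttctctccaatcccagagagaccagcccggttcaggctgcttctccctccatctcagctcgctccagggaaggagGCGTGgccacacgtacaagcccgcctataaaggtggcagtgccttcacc

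*CYP1A2*, the closest relative of *CYP1A1* and mainly a liver enzyme (hg19, chr15:75041184-75048941, plus strand), starts 23.3 kb from *CYP1A1* in the opposite orientation. It was low in both libraries, at 0.429 FPKM in EtOH and 0.249 FPKM in R5020, from about 78 and 39 reads and with overlapping intervals, and did not reach the 1 FPKM needed for a comparison. *CYP1B1*, the family member known for 4-hydroxylation of estradiol (hg19, chr2:38294746-38303323, minus strand), was the most abundant of the 9 genes, at 82.0 FPKM in EtOH and 79.8 FPKM in R5020. Its log2 fold change was -0.04. Both values lay above the upper bounds of their own intervals, 70.8 and 68.3, a discrepancy shared by 35.4% of the transcripts above 1 FPKM in each library. *NQO1*, a quinone reductase driven by both AHR and NRF2 (hg19, chr16:69743304-69760533, minus strand), was at 62.8 FPKM in EtOH and 59.0 FPKM in R5020, a log2 fold change of -0.09. The 3 P450 genes of family 1 thus comprised 1 gene called lower, 1 that was close to equal in the libraries and 1 below the filter.

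Of the 9 genes 6 reached the filter, of which 1 was at least 1.5-fold higher in R5020 (*TIPARP*), 1 was at least 1.5-fold lower (*CYP1A1*) and 4 were not called. Among all 11018 retained genes 7.67% were called higher and 4.14% lower, 11.8% in either direction. Because the genes were chosen with these changes known, nothing is read from the difference between these shares. The median log2 fold change was -0.06 over the 6 genes and 0.01 over all retained genes. Just outside the threshold lay *AHR* at 0.53 and, farther off, *ARNT* at -0.33, and the 2 called genes lay far inside it.

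**Figure D2:**
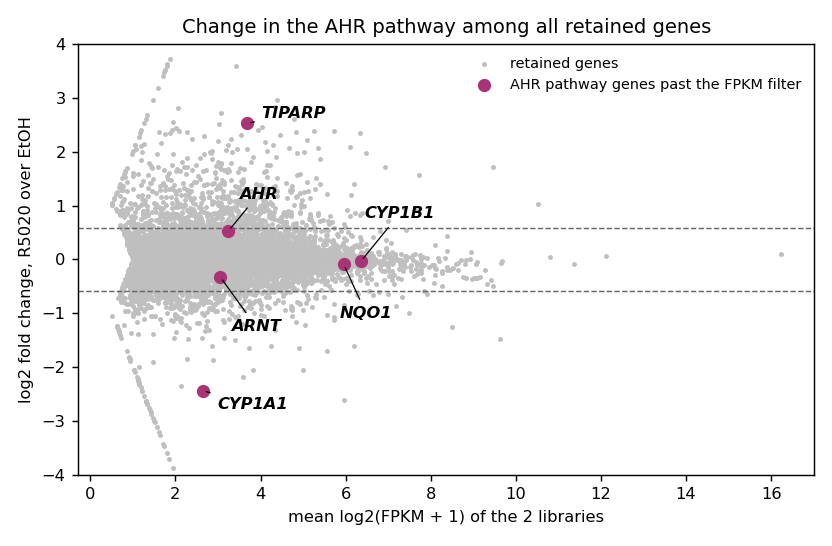
Log2 fold change of R5020 over EtOH (vertical axis) against the mean log2(FPKM + 1) of the 2 libraries (horizontal axis) for the retained genes (grey) and for the 6 retained AHR pathway genes (large points); dashed lines mark 1.5-fold, and the vertical axis stops at 4 in each direction, which leaves out 50 genes. *TIPARP* (2.52) and *CYP1A1* (-2.44) lie on opposite sides of the cloud, *AHR* (0.53) lies just under the upper line, and *CYP1B1* and *NQO1* lie near 0 at the high end of expression.

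The gene sums hid a difference in how the software divided the *TIPARP* level between transcripts. NM_015508, which starts first among the 2 detected transcripts, went from 2.91 FPKM in EtOH to 29.9 FPKM in R5020, with intervals of 2.62 to 3.19 and 29.1 to 31.1 and a log2 fold change of 2.98. NM_001184718, which starts 2248 bases further downstream, went from 1.47 FPKM, covered by about 519 reads, to a listed 0. NM_001184717 was listed at 0 in both. In EtOH NM_015508 provided 66.5% of the *TIPARP* level and NM_001184718 33.5%, and in R5020 the whole level was assigned to NM_015508, with the same limit on a listed 0 as for *AHRR*. These transcripts share most of their exons, and the division of shared reads among them is an estimate of the software. The study reported only a single *TIPARP* variant as regulated, with a p-value cut-off that is not applied here. The overlapping *TIPARP-AS1*, on the opposite strand, was listed at 0 in both libraries, and reads of overlapping genes on opposite strands could not be told apart unless the counting used the strand, which is not given in the sources used here.

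*NQO1* was also divided among transcripts. NM_000903 was at 42.1 FPKM in EtOH and 41.3 in R5020 with overlapping intervals. NM_001025434 was at 20.7 and 17.7 FPKM with intervals of 19.5 to 21.9 and 16.6 to 18.9, and NM_001025433 was listed at 0 in both. Over the 16 transcripts of the 9 genes, 9 reached 1 FPKM, 1 was called higher (NM_015508) and 2 were called lower (NM_000499 of *CYP1A1* and NM_001184718, for which no fold is given because it is listed at 0 in R5020), and 5 were listed at 0 in both libraries. Among all 13625 retained transcripts 11.3% were called higher and 8.34% lower, 19.7% in either direction. The intervals lay apart for 6 of the 9 retained transcripts, and for 48.1% of 13579 retained transcripts with successful estimates, so intervals that lie apart were common in this pair of libraries.

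**Figure D3:**
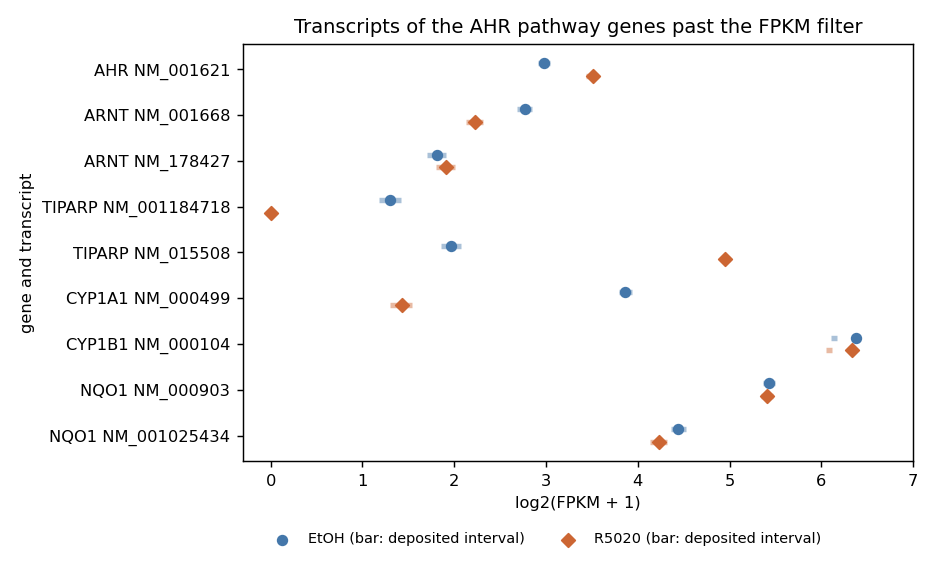
Level, as log2(FPKM + 1), of the 9 retained transcripts in the EtOH library (circles) and the R5020 library (diamonds), with pale bars for the interval deposited with each estimate. NM_015508 of *TIPARP* stands at 2.91 and 29.9 FPKM and NM_001184718 goes to a listed 0. Of the *ARNT* transcripts, NM_001668 is lower in R5020 with bars apart, and the bars of NM_178427 overlap. The *CYP1B1* points lie outside their own bars.

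Sites of PR binding were then searched at the 9 genes. The deposited list holds 11181 sites with scores of 50 to 1965, where the score is 10 times the negative log10 of the peak caller's p-value, with a median of 74.5. A site within 50 kb of the gene was found for 6 of the 9 genes, against 45.7% of all 23287 symbols and 52.7% of the retained genes. Among all called genes the share was 61.4% for those higher and 61% for those lower in R5020. Distance was measured from the whole extent of a gene, so a longer gene covers more sequence. When it was measured from a transcription start, 5 of the 9 genes had a site within 50 kb. Among the 6 genes, *AHRR* and *ARNT2* were not retained. The 6 genes had 24 sites in all, with scores of 50.7 to 199 and a median of 72.2.

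Of these 24 sites the one with the highest score was that of *TIPARP* (chr3:156391757-156392269), at 199, above 97.9% of all sites. It reached from 448 bases before the start of NM_015508 to 64 bases after it, and so covered this start and not that of NM_001184718. The site also overlapped *TIPARP-AS1*, on the opposite strand. A site over a transcript start was found for 3.77% of 9657 retained genes of known strand, and *TIPARP* was the only one of the 9 genes to have one. Weaker sites of 58.5 (chr3:156436567-156436981) and 67.3 (chr3:156449501-156449957) lay 12.0 kb and 24.9 kb beyond the gene. Past the 50 kb limit, 110 kb away and inside *LOC730091*, lay a site of 424 (chr3:156534536-156535334), which is above 99.4% of all sites.

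*CYP1A1*, the gene called lower, had no PR site within 50 kb. The nearest one, 75.5 kb away in *EDC3* (chr15:74935645-74936363), had a score of 125 and held 1 match to ACANNNTGT. The nearest site of its neighbour *CYP1A2* lay 70.1 kb away on the other side, in *CPLX3* (chr15:75119017-75119696, score 98.2). *NQO1* had its nearest site 185 kb away (chr16:69557711-69558152, score 83.1). The genes with opposite changes thus differed in their PR sites, 1 having a site at its start and the other none within 50 kb, and whether this difference has a part in the changes was not tested.

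*AHR* had 1 site of 86.6 (chr7:17338479-17338871), which lay 203 to 595 bases after its start in the 5′ untranslated region and held 2 matches to GCGTG in a GC content of 76.1%. *ARNT* had 1 intronic site of 117 (chr1:150817494-150818116) with 1 match to AGAACA, the half-site bound by PR. *ARNT2* had 2 intronic sites, of 77.0 (chr15:80861578-80862121) and 56.5 (chr15:80863837-80864226), although the gene was barely detected. *CYP1B1* had 1 site of 81.5 (chr2:38301435-38301901), 1.66 kb after its start in coding sequence, with 1 match to ACANNNTGT.

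*AHRR*, listed at 0 in both libraries, had 16 of the 24 sites, of which 6 lay inside the gene, all in introns. As many sites were found for 81 symbols, 0.348% of all, and the median among symbols with any site was 2. The scores of these 16 sites ran from 50.7 to 89.2 with a median of 67.1, and 7 of them lay above the median of all sites, 74.5. A score of 100 was reached by 0 of the 16 and by 16.3% of all sites, and none of the 16 held AGAACA or ACANNNTGT. The first 1 Mb of chromosome 5 held 43 sites, rank 21 of 1989 windows of that size with any site. Another 7 symbols lay within 50 kb of those 16 sites, 5 of them past the filter and 0 called, among them *PDCD6* at 54.9 FPKM in EtOH and 46.2 in R5020 and *EXOC3* at 13.0 and 14.2.

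**Figure D4:**
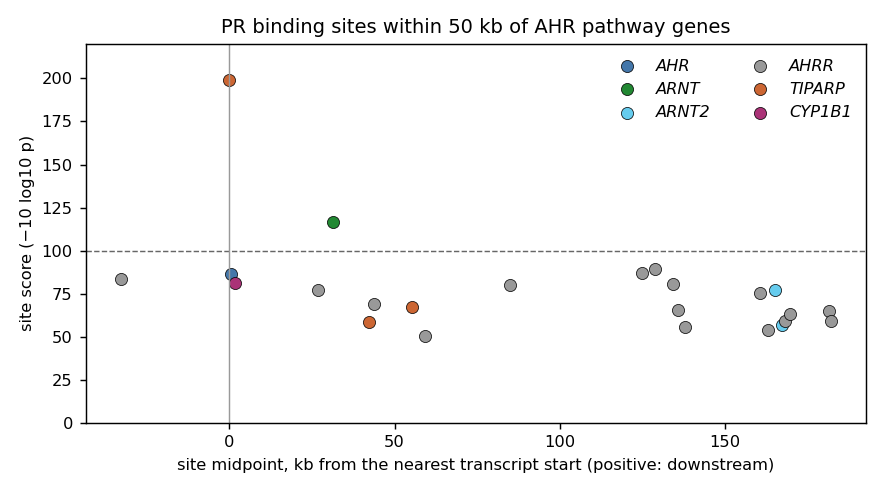
The 24 PR binding sites within 50 kb of 6 of the genes, by the distance of the site's midpoint from the nearest transcript start (horizontal axis, kb, positive downstream) and their score (vertical axis, 10 times the negative log10 of the p-value). The dashed line marks a score of 100. The site of *TIPARP* at its start stands highest at 199, and the 16 sites of *AHRR* all stay below 100.

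The letters of both receptors were counted on both strands in 11178 sites and in windows of the same length 5 kb away. GCGTG was present in 41.5% of the sites and in 33.4% of the windows. AGAACA was present in 25.2% and 27.4%, and ACANNNTGT in 11.6% and 11.4%. In the 1823 sites with a score of at least 100 the shares were 31.4% for AGAACA against 28.1% in their windows, 19.6% against 12.5% for ACANNNTGT and 47.6% against 37.3% for GCGTG. Among the 24 sites near the pathway genes 2 held AGAACA, 2 held ACANNNTGT and 7 held GCGTG. The windows were not matched to the sites in base composition, and no match says only that the letters are not in the site.

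Upstream of the start, *CYP1A1* with 10 matches to GCGTG in 1500 bases was followed by *CYP1B1* with 7, *ARNT* and *TIPARP* with 6 each, *ARNT2* with 4, *NQO1* with 3 and *CYP1A2* with 1, and there was none in this window upstream of *AHR* and *AHRR*. A window with at least 1 match was found for 77.0% of genes. As many as 7 were found for 3.34% and as many as 6 for 6.34% of genes. In the RefSeq promoter windows of GRCh38.p14, 300 bases around each start, 7 of the 9 genes were matched by symbol and 5 of them (*AHR*, *AHRR*, *TIPARP*, *CYP1A1* and *NQO1*) held GCGTG in a window, against 40.6% of all genes in that table. The starts of the 2 sets of windows need not be the same. For *AHRR* the upstream window was chr5:302791-304290 in hg19, and the promoter windows were chr5:321464-321763 and chr5:322360-322659 in GRCh38.p14.

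The other genes of the pathway were taken from 7 lists of 81 genes by role, which hold none of the 9. Past the filter were 54, of which 5 were called higher and 4 lower, 16.7% against 11.8% of all retained genes, and their median log2 fold change was 0.02. The lists, too, were chosen with earlier results of these data known, so nothing is read from the difference between these shares. The 7 genes of the cytosolic receptor complex were all retained and none was called. The chaperone cofactor *PTGES3* was at 113 FPKM in EtOH and 109 in R5020. The kinase *SRC*, at 2.29 and 1.24 FPKM, came closest to the threshold with a log2 fold change of -0.56. None of the 9 coactivators was called either, with log2 fold changes from -0.16 to 0.48, the latter that of *NCOA3* at 11.4 and 16.3 FPKM.

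Among 17 further genes of the AHR target battery, 6 reached 1 FPKM, where 11018 of all 23287 symbols did so. Another 7 were listed at 0 in both libraries, which does not show that they are silent. The amino acid transporter gene *SLC7A5* was lower in R5020, at 37.2 FPKM in EtOH and 21.0 in R5020 (log2 fold change -0.80), and so was the transcriptional repressor *HES1*, at 16.9 and 9.05 FPKM (-0.83). The aldehyde dehydrogenase gene *ALDH1A3* was higher, at 3.15 and 5.66 FPKM (0.68). PR sites within 50 kb numbered 1 for *SLC7A5*, 6 for *HES1* and 1 for *ALDH1A3*. Over all 7 lists 6 of the 9 called genes had such a site, against 61.4% of all genes called higher and 61% of all genes called lower.

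Of 12 genes listed for NRF2, the oxidative stress factor that shares *NQO1* with AHR, 11 were retained and 3 called. The list holds targets of NRF2 and also its inhibitor. The thioredoxin reductase gene *TXNRD1* was at 34.3 FPKM in EtOH and 18.4 in R5020 (log2 fold change -0.86) and the ferritin gene *FTL* at 22.4 and 13.5 FPKM (-0.69). *GCLC*, which encodes the catalytic subunit of an enzyme of glutathione synthesis, was higher, at 6.18 and 10.7 FPKM (0.70). *FTL* has near-identical pseudogenes, and its level is uncertain because reads at several positions were discarded. The median of this list was -0.14.

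In the bHLH-PAS family to which AHR and ARNT belong, 5 of 12 genes were retained and 2 were called, both higher. The hypoxia factor *HIF1A*, which also pairs with ARNT, was at 25.1 FPKM in EtOH and 67.8 in R5020 (log2 fold change 1.40), with no PR site within 50 kb. *SIM2* was at 1.64 and 5.11 FPKM (1.21) and had 2 sites. Of 16 other members of the PARP family, to which TIPARP belongs, 13 were retained and none was called, with log2 fold changes from -0.17 to 0.40, all far from the 2.52 of *TIPARP*. Of 8 genes that make or remove tryptophan-derived ligands, 3 were retained and 1 was called, *KMO* at 1.09 FPKM in EtOH and 2.48 in R5020 (0.74). The enzymes *TDO2* and *IDO1* were below 1 FPKM in both libraries.

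**Figure D5:**
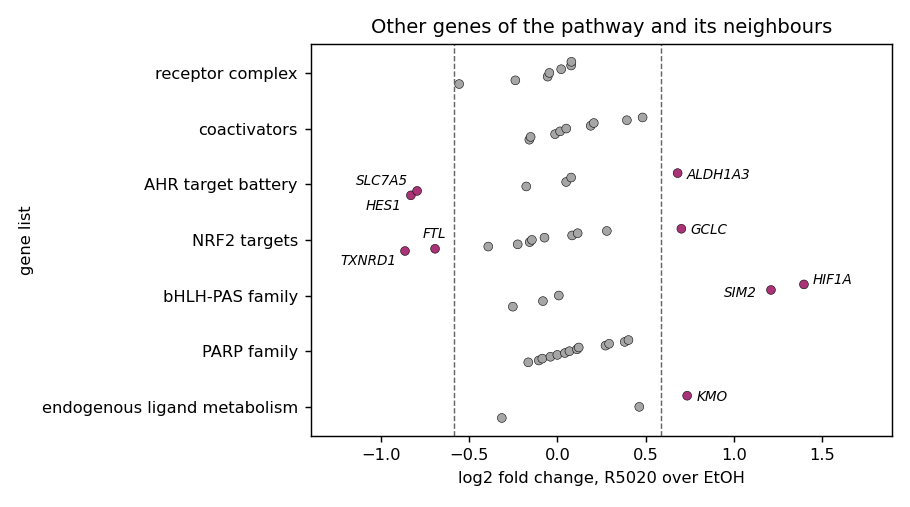
Log2 fold change of R5020 over EtOH for the 54 retained genes of 7 lists, one row per list, with called genes in colour and named and dashed lines at 1.5-fold. The receptor complex, the coactivators and the PARP family have no called gene, and *HIF1A* (1.40) and *SIM2* (1.21) lie farthest to the right.

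The genes whose log2 fold change was closest to that of *TIPARP*, among those at 1 FPKM or more in both libraries, were *CMTM7* (2.40 FPKM in EtOH and 18.5 in R5020), *GPSM2* (5.96 and 37.1) and *CEBPD* (10.2 and 66.9), the last of them differing by 0.0746 from it. Those closest to *CYP1A1* were *RPL21* (153 and 24.3 FPKM), *MIR205HG* (24.5 and 4.63) and *VAV3* (27.9 and 5.95). *RPL21* is uncertain because near-identical copies of it exist in the genome. This likeness rests on 2 libraries and says nothing of shared control.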

How the data were processed

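RNA from T47D cells (1 EtOH and 1 R5020 library) and PR ChIP-seq (1 library) were analysed. The authors sequenced 50-nt read pairs, aligned RNA reads to hg19 with TopHat, discarded reads at several positions, and estimated FPKM, its interval and the coverage signal per RefSeq transcript with Cufflinks; these deposited FPKM values are not counts. ChIP reads were aligned with Bowtie 1.1.2 and sites called with MACS against input, and the deposited score is 10 times the negative log10 of the p-value, 50 or more. Doses and times are from the study's methods.

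Here FPKM was summed per gene symbol, 1 was added, and genes with FPKM of at least 1 in either library were retained (pandas 2.3.3, numpy 2.4.6, Python 3.11.15). A gene was called at 1.5-fold. Reads were estimated as coverage times length over the read length of 50. Sites were assigned within 50 kb, and strand and position came from GENCODE 44 on GRCh37. The scripts were tested on simulated data. Named genes were all 9 members, every list gene called, and the 3 genes with the nearest change. *SRC*, *NCOA3*, *PTGES3*, *TDO2*, *IDO1*, *PDCD6*, *EXOC3* and *ARPC1B* were named after their values were seen. The members and lists were chosen with earlier results of these data known. With 1 library per condition no p-value was computed.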

Additional observations from a re-analysis of the deposited data

How the results depend on the processing

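No member's direction reversed in any of 44 alternative log2 fold changes. Many of these could not reverse, because a pseudocount does not alter which library is higher. Likewise, the highest transcript of a gene with 1 transcript is the gene itself. The absence of a reversal therefore says little about robustness. *TIPARP*, 2.52, became 2.75 with a pseudocount of 0.1, 2.98 with the highest transcript alone and 2.77 with no pseudocount. *CYP1A1*, -2.44, became -2.94 with a pseudocount of 0.1 and -3.01 with none. Below the filter, *CYP1A2*, -0.19, became -0.60 and -0.78 and *ARNT2*, 0.03, became 0.27 and 1.19 under those settings. The alternatives with no pseudocount and with interval midpoints were chosen after seeing the data. *TIPARP* and *CYP1A1* were called in every setting, and *AHR* joined them (0.59) with no pseudocount. Of 11018 genes, 845 higher and 456 lower became 1092 and 787 with a pseudocount of 0.1, 1127 and 845 with none, and 378 and 144 at 2-fold. The other list genes called dropped from 9 to 2 at 2-fold. With sites of at least 100 in score, 2 of the 9 genes kept a PR site within 50 kb, *ARNT* and *TIPARP*, instead of 6. Within 100 kb, 8 of the 9 genes had a site of any score, *CYP1A1* among them. With the longer letters TNGCGTG, 2 genes, *AHRR* and *NQO1*, had a match in a promoter window instead of 5. *TIPARP* and *CYP1A1* were not among them. No paired analysis was possible because each condition has 1 library, and no replicate could be left out. Depth limits *ARNT2* and *CYP1A2*, which rest on fewer than 100 reads a library.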
